A study of Mus musculus with 4 samples.

Results

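Homeobox genes of the Otx, Pitx, Emx and Gsc families were followed in maps of H3K27me3, the trimethylation of lysine 27 of histone H3, in mouse erythro-myeloid progenitors (EMPs). The 7 genes, Otx1, Otx2, Pitx1, Pitx3, Emx1, Emx2 and Gsc, were chosen by name from 21938 protein-coding genes placed on chromosomes, with all rows that the authors' peak annotation gave to their symbols and all peaks that touched a gene or the 20 kb on either side of it. These 7 stretches of genome, called loci here, held 71 of the 10223 peaks of the library from 500 EMPs and 35 of the 15282 peaks of the library from 15000 EMPs.

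The study profiled H3K27me3 by CUT&RUN, in which a nuclease tethered by an antibody releases the DNA around the mark for sequencing, to find genes that carry the mark in yolk sac progenitors. EMPs of C57BL/6 embryos at E10.5 were sorted as KIT+ CD41+ CD16/32+ cells. The genotype label of every library gives Ezh2fl/fl and Tie2-Cre+/+ followed by wild type, and wild type is how the study describes these cells. Tie2-Cre acts in endothelium and the blood cells derived from it. The series had 4 libraries, 1 with the H3K27me3 antibody and 1 with non-specific IgG at each cell number. IgG served the authors as the control in peak calling, and its own signal was not analysed here.

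There was thus 1 library per group, no spread between replicates and no test of any difference below. Cell number could not be told apart from the sequencing instrument, the read length (76 bp for 500 EMPs, 59 bp for 15000), the number of PCR cycles (17 and 16) or the p-value threshold for peaks (0.01 and 0.05). Per the reporting summary, 500 EMPs were sequenced less deeply and a smaller part of their reads aligned. The files held peak positions without counts or scores, so a peak was present or absent, its height was unknown, and a stretch without a peak is a stretch where none was called rather than one without the mark.

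Homeobox genes encode transcription factors that bind DNA through the homeodomain. Otx and Emx genes pattern the head and forebrain, Pitx genes act in pituitary, limb and eye development, and Gsc marks the organizer of the gastrula. H3K27me3 is deposited by the Polycomb complex that contains Ezh2, and in many cell types it lies broadly over CpG-rich developmental regulator genes that are silent.

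Every one of the 7 genes was marked in both libraries. They were chosen with earlier results of these data known, so their values beside those of all genes are a description and no test. All 7 had an annotated peak within 3 kb in the library from 500 EMPs, where 9.73% of protein-coding genes had one. All 7 also did in the library from 15000 EMPs, where the share was 16.7%. This is the authors' distance, taken to the nearer end of the gene. Measured to the gene start, all 7 had a peak within 3 kb in both libraries. Peaks covered a mean of 45.1% of the 3 kb on each side of the 7 gene starts in 500 EMPs, with a range over genes from 24.6% to 76.0%. In 15000 EMPs the mean cover was 90.9% and the range 79.0% to 100%. The gene start is the 5′ end of the gene in GENCODE. With 3 kb on each side, the highest cover in 500 EMPs lay below the lowest in 15000 EMPs. Within 1 kb this did not hold, as Otx1 had 79.2% in 500 EMPs and Emx1 63.6% in 15000 EMPs. Higher cover in 15000 EMPs was not particular to these genes. The covered length in 15000 EMPs was 4.03 times that in 500 EMPs over the whole lists and 2.08 times at the 7 loci.

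The cover of these windows was high beside that of other marked genes. Some part of the window was under a peak at 9.92% of protein-coding genes in 500 EMPs and at 17% in 15000 EMPs. Among the genes so touched the median cover was 13.1% in 500 EMPs and 45.7% in 15000 EMPs, and each of the 7 genes lay above these medians. A cover of at least 50% was reached by 2 of 7 genes in 500 EMPs, Otx1 and Pitx1, against 0.862% of protein-coding genes, and by 7 of 7 in 15000 EMPs against 7.83%.

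**Figure D1:**
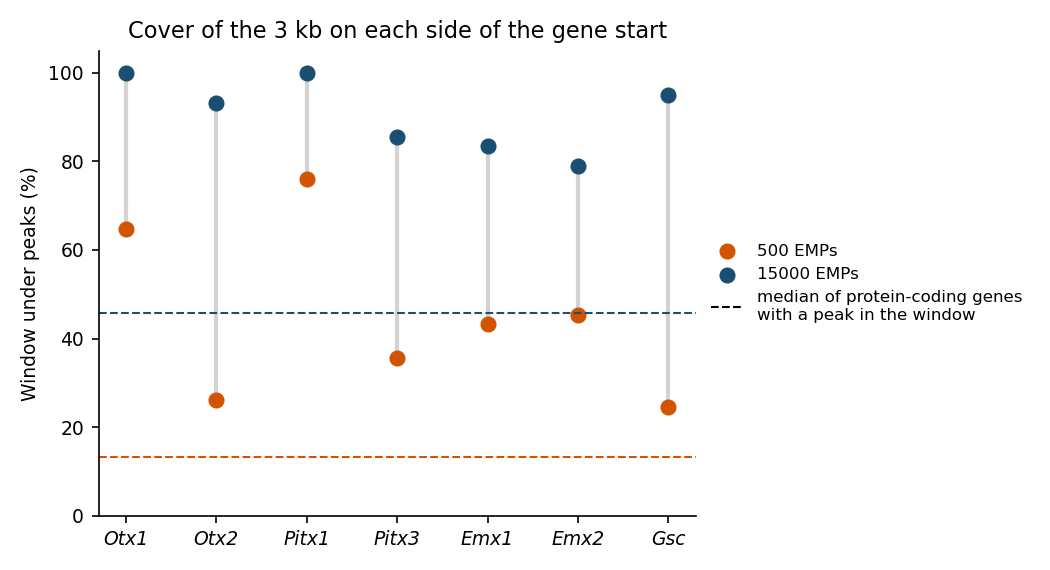
Percent of the 3 kb on each side of the gene start under H3K27me3 peaks (vertical axis) for each of the 7 genes (horizontal axis) in the library from 500 EMPs (orange) and from 15000 EMPs (blue), 1 library each. Dashed lines give the median of protein-coding genes with a peak in the window, 13.1% and 45.7%, and all points lie above the line of their own library.

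Sequences around 4 of these genes are given first, some from stretches that the libraries covered differently and others from stretches without a peak in either. Each is printed 5′ to 3′ on the strand of the gene, in lower case with every CG dinucleotide in capitals, from the GRCm38 (mm10) assembly. CG reads the same on both strands. The first 4 are the 250 bases before the gene start of Pitx3 (chr19:46148327-46148576, minus strand), Emx1 (chr6:85187188-85187437, plus strand), Emx2 (chr19:59458122-59458371, plus strand) and Gsc (chr12:104473331-104473580, minus strand).
Pitx3: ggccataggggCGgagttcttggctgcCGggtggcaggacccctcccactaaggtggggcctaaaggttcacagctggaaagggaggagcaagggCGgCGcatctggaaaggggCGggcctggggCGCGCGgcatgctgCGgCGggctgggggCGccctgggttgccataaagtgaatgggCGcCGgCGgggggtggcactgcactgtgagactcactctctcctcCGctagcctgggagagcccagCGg
Emx1: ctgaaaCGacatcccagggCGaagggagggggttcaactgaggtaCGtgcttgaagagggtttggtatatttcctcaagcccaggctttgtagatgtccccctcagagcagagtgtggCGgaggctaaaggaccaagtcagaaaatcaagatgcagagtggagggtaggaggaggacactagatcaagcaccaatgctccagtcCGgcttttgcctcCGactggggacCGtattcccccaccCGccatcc
Emx2: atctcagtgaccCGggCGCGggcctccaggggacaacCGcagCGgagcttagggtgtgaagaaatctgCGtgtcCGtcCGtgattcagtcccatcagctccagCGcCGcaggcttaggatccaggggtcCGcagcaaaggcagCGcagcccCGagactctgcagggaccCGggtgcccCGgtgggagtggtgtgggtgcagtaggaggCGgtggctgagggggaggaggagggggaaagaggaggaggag
Gsc: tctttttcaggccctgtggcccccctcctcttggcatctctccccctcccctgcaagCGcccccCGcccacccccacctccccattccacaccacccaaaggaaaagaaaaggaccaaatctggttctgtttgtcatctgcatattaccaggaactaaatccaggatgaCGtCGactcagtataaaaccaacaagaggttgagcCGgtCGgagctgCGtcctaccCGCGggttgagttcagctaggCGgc

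The 4 stretches differed in CpG content and in which library marked them. That of Pitx3 held 16 CpG, a number reached before 29.4% of 21931 protein-coding gene starts, and peaks covered 159 of its bases in 500 EMPs and 108 in 15000 EMPs. The stretch before Emx2 also held 16 CpG, with 0 bases covered in 500 EMPs and all 250 in 15000 EMPs. Gsc, with 10 CpG, a number reached before 46.0% of gene starts, had the same split of 0 and 250 bases. The stretch before Emx1 had 8 CpG, reached before 51.8% of starts, and was the reverse, with all 250 bases covered in 500 EMPs and 162 in 15000 EMPs.

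The other pair comes from gaps at the Emx genes where neither library had a peak. The first is a whole gap of 261 bases upstream of Emx1 (chr6:85184997-85185257, plus strand), and the other is the first 300 bases of the coding sequence of Emx2 (chr19:59459216-59459515, plus strand), which lie in its first exon inside a longer gap.
Emx1 upstream gap: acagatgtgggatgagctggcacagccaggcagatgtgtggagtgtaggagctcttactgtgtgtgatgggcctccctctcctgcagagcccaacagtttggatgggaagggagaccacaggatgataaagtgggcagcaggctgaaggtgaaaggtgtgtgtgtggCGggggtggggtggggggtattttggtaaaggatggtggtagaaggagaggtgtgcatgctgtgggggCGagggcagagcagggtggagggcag
Emx2 coding stretch: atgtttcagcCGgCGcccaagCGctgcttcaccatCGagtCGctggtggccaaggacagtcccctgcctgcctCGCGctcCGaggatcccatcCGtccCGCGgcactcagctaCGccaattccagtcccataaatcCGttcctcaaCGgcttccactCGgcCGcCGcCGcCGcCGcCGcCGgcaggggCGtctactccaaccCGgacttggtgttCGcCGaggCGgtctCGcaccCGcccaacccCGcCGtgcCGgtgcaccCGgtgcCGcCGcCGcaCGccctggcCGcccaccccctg

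The stretches differed in CpG number. The stretch upstream of Emx1 held 2 CpG and was 58.6% G or C. At least that many CpG were found in 71.9% of the 1354 windows of the same length that tile the 7 loci. The Emx2 stretch held 38 CpG and was 71.3% G or C, and 3 of 1178 windows of its length, 0.255%, held at least as many.

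The Otx genes encode homeodomain factors of the anterior head, Otx2 required for forebrain and midbrain to form and Otx1 acting in the cortex and sense organs. Otx1 (ENSMUSG00000005917, chr11:21994764-22002897, minus strand) had 15 peaks in 500 EMPs that covered 9603 bp of its locus. In 15000 EMPs it had 4 peaks that covered 22015 bp. The widest of these, 14038 bp, ran from -4437 to 9600 bp of the gene start (negative values lie upstream), covered the whole gene, and held 10 of the 15 narrower peaks.

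The gene start of Otx1 fell in a gap of 344 bp between peaks in 500 EMPs, and this gap was under the wide peak in 15000 EMPs. The start of its principal transcript in GENCODE lies 1282 bp inside the gene and was under a peak in both libraries. Of the bases covered in 500 EMPs at this locus, 99.2% were also covered in 15000 EMPs. On the upstream side lies Ehbp1, a broadly expressed gene for an endocytic protein, whose body was covered by 0.177% in 500 EMPs and 0.754% in 15000 EMPs and whose own start window had no peak in either.

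Otx2 (ENSMUSG00000021848, chr14:48657677-48673819, minus strand) carried the widest peak of the 7 loci. Its 14 peaks in 500 EMPs covered 11058 bp. In 15000 EMPs its 4 peaks covered 23796 bp, and 1 of them, of 17571 bp, was rank 31 by width of all 15282 peaks and held 10 of the narrower peaks.

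In 500 EMPs the peaks of Otx2 lay on the gene and past it rather than before it. Its peaks ran from -111 bp to 22475 bp of the gene start, past the 3′ end. The gene start was covered in both libraries, but only 26.2% of its window was under peaks in 500 EMPs against 93.3% in 15000 EMPs. Around the principal transcript start, 8713 bp inside the gene, the cover was 54.4% and 100%. The long non-coding gene Otx2os1 starts within Otx2 on the opposite strand, and the authors' annotation gave 11 of the 14 peaks in 500 EMPs to it and 3 to Otx2.

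At the Otx genes most peaks of 500 EMPs lay under wider peaks of 15000 EMPs. The map of peaks shows this pattern, a row of narrow peaks in 500 EMPs lying within a few wide ones in 15000 EMPs. Otx1 and Otx2 each had 10 narrow peaks under their widest one.

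**Figure D2:**
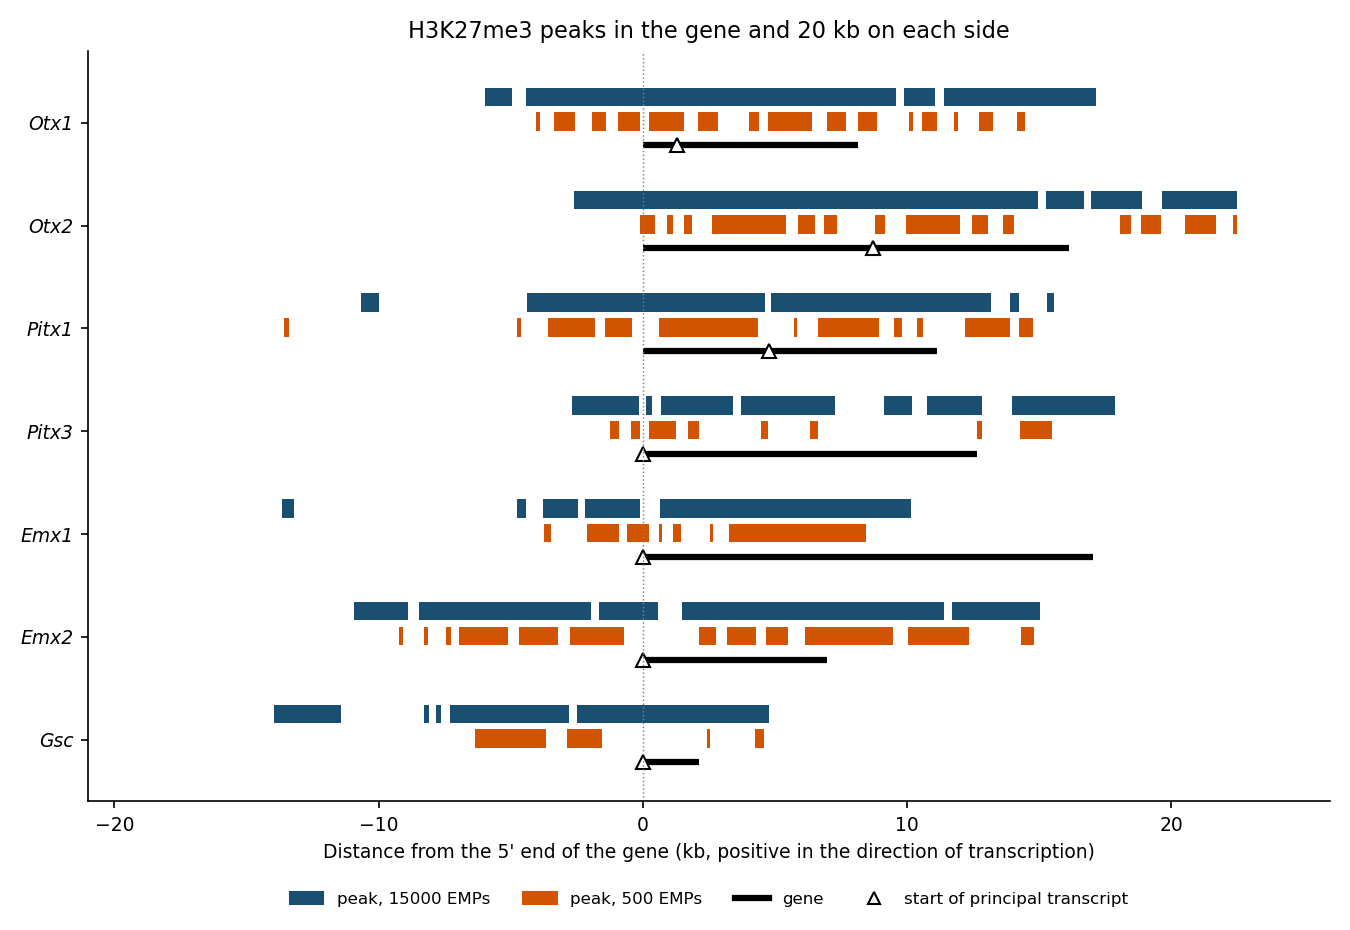
H3K27me3 peaks in each gene and the 20 kb on either side, plotted by distance in kb from the 5′ end of the gene (horizontal axis, positive in the direction of transcription) for the 7 genes (rows), from 15000 EMPs (blue) and 500 EMPs (orange), with the gene as a black bar and the principal transcript start as a triangle. At Otx1 and Otx2 the widest of 4 blue blocks, of 14038 and 17571 bp, lies over 10 orange ones. The gene bar of Gsc has a blue block above it and no orange one.

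The Pitx genes act in different organs, Pitx1 in hindlimb identity and the pituitary, Pitx3 in the lens and in midbrain dopamine neurons. Pitx1 (ENSMUSG00000021506, chr13:55825051-55836192, minus strand) had 11 peaks over 12006 bp in 500 EMPs and 5 peaks over 18647 bp in 15000 EMPs. At 76.0% it had the highest cover of the 7 genes in 500 EMPs with 3 kb on each side of the gene start. Within 1 kb it had 48.0%, below Otx1 with 79.2%, and within 10 kb 46.8%, below Emx2 with 59.5%. In 15000 EMPs its window of 3 kb on each side was covered whole.

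The principal transcript of Pitx1 begins 4767 bp inside the gene, and here both libraries had a gap. In 15000 EMPs peaks of 8331 and 8984 bp lay on its 2 sides, separated by 242 bp without a peak (chr13:55831335-55831576). These 242 bp were 75.6% G or C, held 30 CpG and also had no peak in 500 EMPs. Pitx1 was the only locus of the 7 with peaks of 500 EMPs, 3 in number and 137, 166 and 521 bp wide, that no peak of 15000 EMPs touched.

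Pitx3 (ENSMUSG00000025229, chr19:46135685-46148326, minus strand) had the smallest covered length in 500 EMPs and the largest ratio between the libraries. Its 8 peaks in 500 EMPs covered 4124 bp, and its 7 peaks in 15000 EMPs covered 16142 bp, 3.91 times as much. The widest of the 7 was 3918 bp, rank 1382 of all peaks, and none of the other genes had its widest peak below 7271 bp. Pitx3 was also the gene that stayed in most pieces in 15000 EMPs.

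The start of Pitx3 was under no peak in either library. The stretch without a peak in both measured 197 bp (chr19:46148221-46148417), 73.6% of it G or C with 14 CpG, and it takes in the last bases of the upstream sequence printed above. At its other end Pitx3 overlaps Elovl3, a fatty acid elongase gene, whose body was covered by 37.1% in 500 EMPs and 70.2% in 15000 EMPs. The annotation gave 2 of the peaks at this locus to Elovl3 in 500 EMPs and 3 in 15000 EMPs. Gbf1, a Golgi trafficking gene on the upstream side, had no peak in its body in either library, and 0.767% of its start window was covered in 500 EMPs and 25.2% in 15000 EMPs.

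The Emx genes pattern the cerebral cortex, and Emx2 is also needed for the urogenital tract. Emx1 (ENSMUSG00000033726, chr6:85187438-85204462, plus strand) had 7 peaks over 8070 bp in 500 EMPs and 5 over 13777 bp in 15000 EMPs. It had the only peak over 5 kb of the 71 in 500 EMPs, of 5182 bp inside the gene, where such peaks made up 0.293% of the whole list. Of the gene body 55.8% was covered in 15000 EMPs, the lowest value of the 7 genes, as the peaks ended 10147 bp from the start of a gene of 17025 bp.

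Emx1 was the only member whose start was under a peak in 500 EMPs and not in 15000 EMPs. In 500 EMPs a peak ran from -584 to 235 bp of the start. In 15000 EMPs the start fell in a gap of 729 bp, from -88 to 640 bp. The part without a peak in both libraries was 367 bp (chr6:85187674-85188040), all of it exonic, with 42 CpG and 74.1% G or C. Sfxn5, the next protein-coding gene, had no peak in its body in either library.

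Emx2 (ENSMUSG00000043969, chr19:59458372-59465357, plus strand) had the largest covered length of the 7 loci in both libraries. Its 12 peaks covered 14675 bp in 500 EMPs, and 5 peaks covered 23987 bp in 15000 EMPs, of which the widest was 9917 bp. Peaks reached on both sides beyond the gene of 6986 bp, from -10931 to 15022 bp of the start in 15000 EMPs.

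The start of Emx2 was free of peaks in 500 EMPs over 2822 bp, and 67.0% of this gap was covered in 15000 EMPs. What remained in both libraries was a gap of 931 bp, from 571 to 1501 bp downstream of the start (chr19:59458943-59459873), which holds the coding stretch printed above. This gap had 91 CpG and was 66.6% G or C. Emx2os, an antisense gene that overlaps the first bases of Emx2, was given 6 of the 12 peaks in 500 EMPs by the annotation. These 6 lay from 2126 to 14790 bp downstream of the Emx2 start, outside the body of Emx2os. Of that body 17.7% was covered in 500 EMPs, by peaks given to Emx2, and 31.2% in 15000 EMPs.

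Gsc, goosecoid, is a gene of the gastrula organizer and later of the craniofacial skeleton, and it was the member with the fewest peaks in 500 EMPs. Gsc (ENSMUSG00000021095, chr12:104471209-104473330, minus strand) had 4 peaks over 4488 bp in 500 EMPs and 5 over 14696 bp in 15000 EMPs. Of the gene body 0 bases were covered in 500 EMPs and 100% in 15000 EMPs, and it was the only gene of the 7 without a peak in its body in 500 EMPs.

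The peaks of Gsc in 500 EMPs flanked it. The gap that held the gene was 3952 bp, the longest around any of the 7 starts in 500 EMPs, and all of it was under the 7271 bp peak in 15000 EMPs. Of the bases covered in 500 EMPs 93.5% were covered again. The divergent non-coding gene Gm10000, which starts 1 bp from Gsc, was covered by 47.2% of its body in 500 EMPs and 93.4% in 15000 EMPs.

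Not every start lay under a peak. Of the 7 gene starts 2 were under a peak in 500 EMPs, those of Otx2 and Emx1, where 1.4% of protein-coding genes had a covered start. In 15000 EMPs 5 were, all but those of Pitx3 and Emx1, against 8.63% of protein-coding genes. With the principal transcript start in place of the gene start the numbers were 2 of 7, Otx1 and Emx1, and 4 of 7, Otx1, Otx2, Emx2 and Gsc. Along the window in 15000 EMPs, all 7 genes were under a peak at each position read, every 200 bp, from -1000 to -200 bp, 5 at the start and 4 at 600 bp downstream. Of the genes with a peak in the window, 50.8% were under a peak at the start and 62.9% at 600 bp.

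Cover was also read by base composition. In bins of 200 bp of the 7 start windows, peaks of 15000 EMPs covered 94.0% of bases in bins under 50% GC and 95.1% in bins of 50% to 60%. The cover was 82.4% at 60% to 70% and 72.8% at 70% or above. In 500 EMPs the same classes had 47.8%, 48.2%, 40.5% and 24.5%. The most GC-rich class had the lowest value in both libraries, but it rests on 13 bins from 6 genes, without Otx2, and neighbouring bins of a gene share its peaks. In 15000 EMPs 9 of the 13 bins were covered whole, those of Otx1, Pitx1 and Gsc, and the lower value came from 4 bins of Pitx3, Emx1 and Emx2. In 500 EMPs 3 of the 13 were covered whole, all of Otx1, and 9 not at all.

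Across all genes with a peak in the window the classes had the same order in 500 EMPs and another in 15000 EMPs. In 500 EMPs the highest GC class had the lowest cover, 4.74%, against 23.6% at 50% to 60%. In 15000 EMPs the cover rose from 41.2% under 50% GC to 61.2% at 60% to 70%, and was 42.4% at 70% or above. Reads per base were not in the files, and the part of sequencing or alignment of GC-rich DNA in this pattern was not tested.

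**Figure D3:**
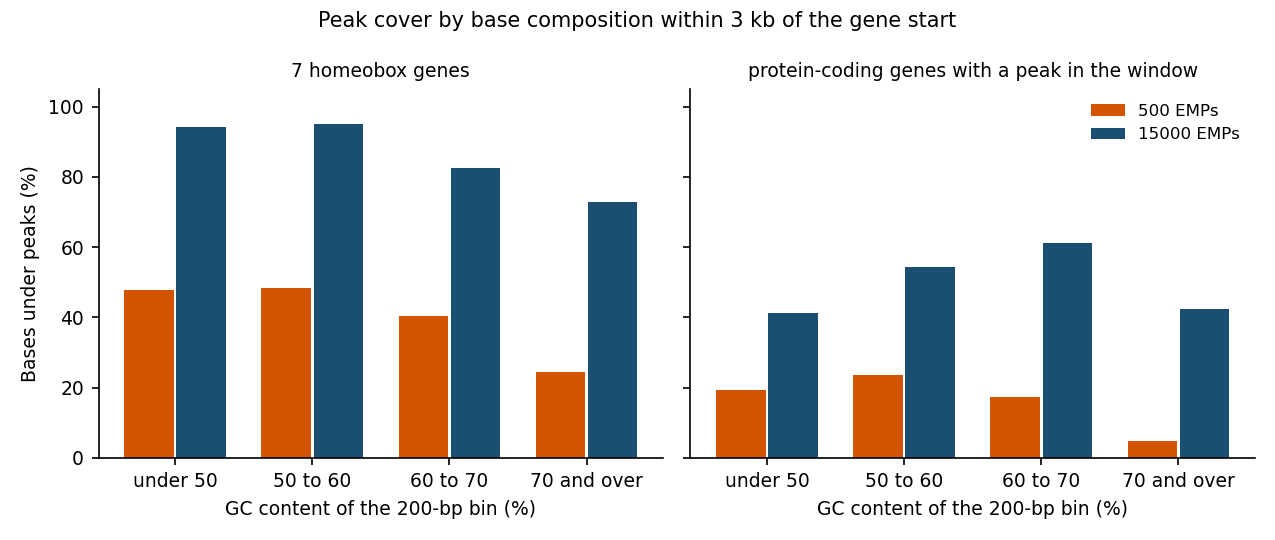
Percent of bases under H3K27me3 peaks (vertical axis) in 200-bp bins of the 3 kb on each side of the gene start, by GC content of the bin in percent (horizontal axis), for the 7 genes (left) and for protein-coding genes with a peak in the window (right), in 500 EMPs (orange) and 15000 EMPs (blue). The bins of 70% GC and over, 13 bins of 6 genes, have the lowest bars on the left, 24.5% and 72.8%.

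Most peaks of 500 EMPs at the 7 loci overlapped a peak of 15000 EMPs, as most peaks of their whole list did. Of the 71 peaks of 500 EMPs 68, or 95.8%, overlapped a peak of 15000 EMPs by at least 1 bp, beside 91.2% of that whole list. Of the 35 peaks of 15000 EMPs 25, or 71.4%, overlapped a peak of 500 EMPs, beside 32.2% of that list. The 10 that did not were at most 2528 bp wide, the widest upstream of Gsc. These shares fell to 4.23% and 8.57% when at least 50% of both peaks had to be shared, as the widths differed.

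In bases, the peaks of 500 EMPs covered 64024 bp and those of 15000 EMPs 133060 bp, and 60075 bp were common to both. This was 93.8% of the former and 45.1% of the latter. The covered length in 15000 EMPs was 2.08 times that in 500 EMPs at the 7 loci and 4.03 times over the whole lists. By gene this ratio ran from 1.55 at Pitx1 to 3.91 at Pitx3. The median peak width was 543 bp at the 7 loci against 363 bp in the list of 500 EMPs, and 2210 bp against 770 bp in that of 15000 EMPs. Of the 35 peaks of 15000 EMPs 9 were wider than 5 kb, against 5.73% of the list.

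Differences in start cover within a family depended on the window, and for Pitx and Emx so did the order. With 3 kb on each side Otx1 exceeded Otx2 by 38.5 percentage points in 500 EMPs and by 6.70 in 15000 EMPs, but around the principal transcript starts the cover in 500 EMPs was 57.9% for Otx1 and 54.4% for Otx2. Pitx1 exceeded Pitx3 by 40.3 points in 500 EMPs and 14.5 in 15000 EMPs. Within 1 kb on each side, Pitx1 had 48.0% and Pitx3 60.8% in 500 EMPs, and 100% and 71.7% in 15000 EMPs.

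For the Emx genes, the difference of Emx1 minus Emx2 was -1.97 points in 500 EMPs and 4.50 points in 15000 EMPs with 3 kb on each side. Within 1 kb both signs turned, with 52.1% for Emx1 and 15.2% for Emx2 in 500 EMPs, and 63.6% and 78.5% in 15000 EMPs. Within 10 kb Emx1 was lower in both libraries, with 40.3% against 59.5% in 500 EMPs and 65.8% against 91.6% in 15000 EMPs. Otx1 and Pitx1 were at 100%, the highest value possible, in 15000 EMPs.

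Other homeobox genes of the paired-like and related groups were taken as a list of 27. Of these 21 had an annotated peak within 3 kb in 500 EMPs and 23 in 15000 EMPs, by the authors' distance to the nearer gene end. Measured to the gene start, the numbers were 21 and 22. The median cover of their start windows was 39.2% in 500 EMPs and 86.9% in 15000 EMPs, beside medians of 43.3% and 93.3% of the 7 genes. The means were further apart, 35.3% and 67.4% for the list beside 45.1% and 90.9%, as the list held genes at 0%. A cover of at least 50% was reached by 10 of 27 genes in 500 EMPs and 19 of 27 in 15000 EMPs. Their starts were under a peak in 8 and 19 of 27 genes.

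Crx, the Otx family member of photoreceptors, had 0 peaks called within 20 kb in either library.

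Isx of the intestine and Prrx2 of mesenchyme also had no annotated peak within 3 kb, in the authors' distance, in either library. The nearest annotated peaks of Prrx2 lay inside the gene, 8919 bp from its start in 500 EMPs and 7197 bp in 15000 EMPs, and around its principal transcript start, 10087 bp inside the gene, the cover was 3.58% and 65.0%. Isx had no peak within 20 kb. Hesx1, a forebrain and pituitary gene, and Noto of the notochord had such a peak only in 15000 EMPs. That of Hesx1, 337 bp wide, lay inside the gene at 6390 to 6726 bp from its start, and covered 0% of the window around the gene start and 5.62% of that around the principal transcript start. Noto had 26.2% of its window covered in 15000 EMPs and its nearest peak at 12957 bp in 500 EMPs.

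**Figure D4:**
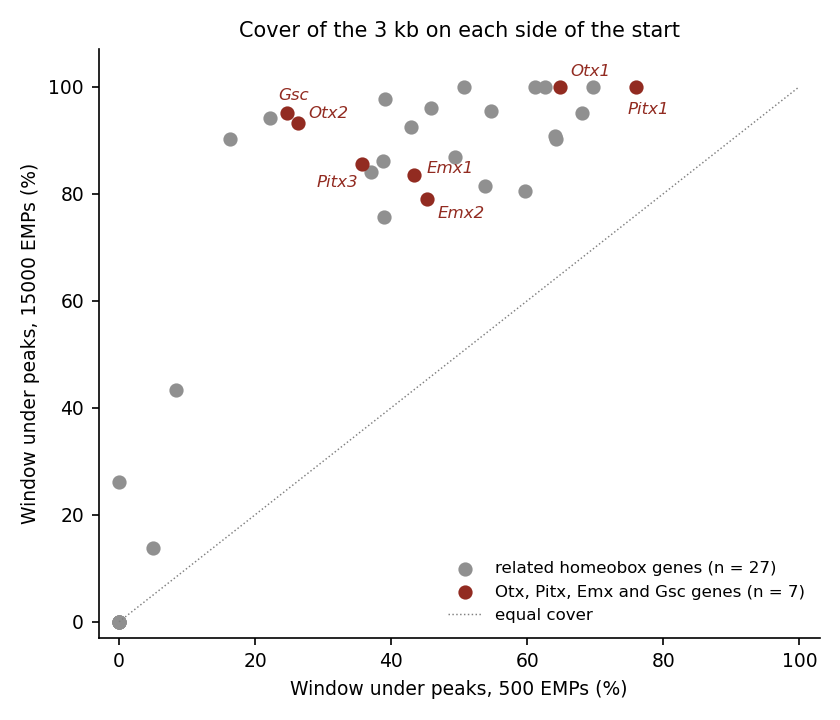
Percent of the 3 kb on each side of the gene start under peaks in 500 EMPs (horizontal axis) and in 15000 EMPs (vertical axis), 1 point per gene, for the 7 genes (red, named) and 27 other homeobox genes (grey). The dotted line marks equal cover, and the 7 genes lie within the upper group, from 79.0% to 100% on the vertical axis, while genes such as Crx sit at 0 on both.

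Genes that define EMPs and early blood cells were checked as well. Of 10 such genes, among them Kit, Itga2b (CD41), Runx1, Gata1 and Spi1, 0 had an annotated peak within 3 kb in either library, beside 9.73% and 16.7% of protein-coding genes, and a list of 10 is too short to set 0 apart from these shares. Fcgr3, which encodes a CD16/32 antigen, had its nearest peak at 4121 bp in 500 EMPs and 4057 bp in 15000 EMPs. RNA of the 7 genes was not measured in these libraries.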

How the data were processed

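H3K27me3 CUT&RUN of mouse E10.5 yolk sac EMPs was deposited as peak positions, 1 library per cell number. The authors aligned reads to mm10 (GRCm38) with Bowtie2 2.2.1 and SAMtools (1.9 in the labels, 1.3.1 in the reporting summary) and called broad peaks with MACS2 2.1.2 against IgG, at p-value thresholds of 0.01 (500 EMPs) and 0.05 (15000 EMPs). In their command listing these thresholds stand beside the opposite cell numbers, and the lists were taken as labelled. They annotated peaks with ChIPpeakAnno (3.20.1 in the methods, 3.26.2 in the reporting summary). The deposited files hold starts, ends and distances in bp with no score or count, so the reads behind a peak are unknown, and the depth that the reporting summary states for each library could not be used to correct the lists.

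Peaks were set on GENCODE vM21 genes with positions 1-based. Overlap needed 1 bp, loci were the gene with 20 kb on each side, and windows were 3 kb on each side of the start. Symbols were matched by name, with 1 of the related genes through a synonym. Sequences came from the RefSeq copy of GRCm38, and the promoter table held 5 of the 7 genes. Scripts ran in python 3.11.15 with numpy 2.4.6 and pysam 0.24.0, and the cover code, tested on simulated data, gave a wrong value in 0 of 200 windows.

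Groups came from the labels. The members and gene lists were chosen with earlier results of these data known. Genes named were all members, the related genes without an annotated peak within 3 kb in one or both libraries, Crx, and neighbouring genes, and values of some related genes and some sequences are not reported here. Marker genes were checked for peaks. Alternatives covered the distance limit, locus, window, start, overlap, joining and filtering of peaks.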

Additional observations from a re-analysis of the deposited data

Results flagged for a closer look

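The annotated tables also give the 7 genes peaks far from the loci described above, and these enter no comparison. In 500 EMPs 4 rows lay beyond 20 kb, 1 given to Pitx1 at 125108 bp and 3 to Gsc at 39418, 60283 and 105135 bp. In 15000 EMPs 8 rows did, 1 given to Otx2 at 35229 bp, 5 to Pitx1 between 87376 and 148657 bp, and 2 to Gsc at 39286 and 102863 bp. All were upstream of the gene. They were 137 to 152 bp wide in 500 EMPs and 202 to 1109 bp in 15000 EMPs. One position near 125 kb from Pitx1 and another near 39 kb from Gsc overlapped between the libraries. Control values at these positions were not analysed here, and which gene these peaks belong to was not tested.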

How the results depend on the processing

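Of 48 alternatives for 10 main results, 41 stayed within the set limits, a factor of 1.5 for counts and cover and a 95% Wilson interval for shares, and 7 moved, all to lower values. Joining peaks within 1 kb left 26 of the 71 peaks in 500 EMPs and 13 of the 35 in 15000 EMPs, and joining within 3 kb left 11 and 10, so the number of peaks depends on how far peaks are joined. Requiring at least 50% of both peaks lowered the overlapping share of 500-EMP peaks to 4.23% and that of 15000-EMP peaks to 8.57%, and at least 50% of the 15000-EMP peak alone also gave 8.57%. For single genes, 14 of 70 alternatives moved the cover around the start, 6 up and 8 down. Around the gene start of Gsc in 500 EMPs the cover was 0% within 1 kb on each side.

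No paired analysis was possible because each group had 1 library, which also leaves no replicate to leave out. Depth is not in the files, so a base without a peak in 500 EMPs is not shown to lack the mark.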
